A study of Mus musculus with 6 samples.

Results

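The AP-1 genes described here are 10 genes of the bZIP class, found by their symbols among the 22375 rows of the deposited expression table. They are the FOS subfamily (Fos, Fosb, Fosl1 and Fosl2), the JUN subfamily (Jun, Junb and Jund), the small MAF genes Maff and Mafk, and Batf3. All 10 symbols were found, each in 1 row. RNA-seq was performed on C2C12 cells, a line of mouse myoblasts, in serum-containing medium on elastic plates coated with poly-lysine. The 3 CON libraries came from unstretched control cells and the 3 4H libraries from cells under cyclic stretch at 15% elongation for 4 h. C2C12 is a single established line, here a model of overloaded diaphragm muscle, and the labels name no genetic change in either group. The labels call the samples of a group replicate biosamples without saying that they were separate cultures, so the p-values measure the spread between these samples, which may be technical. The comparison asks how stretch altered the transcripts of this family.

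AP-1 is a dimer of bZIP proteins, in which a basic region contacts DNA and a leucine zipper joins both partners. JUN proteins pair with each other or with FOS proteins, whereas FOS proteins need a JUN partner to bind the site TGANTCA. FOS, FOSB, JUN and JUNB can start transcription and carry activation domains, FOSL1 and FOSL2 lack the strong activation domain of FOS, and JUND is the JUN protein typical of resting cells. Small MAF proteins have no activation domain and work mainly as partners of NRF-type and BACH proteins, and BATF proteins pair with JUN. Fos, Fosb, Jun, Junb and Maff are classic early response genes, induced briefly by serum, growth factors, stress and mechanical load, while Fosl1 follows later and is itself an AP-1 target. In myoblasts, high FOS and JUN activity is known to hold back differentiation.

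To show the DNA in front of the genes that changed most, 250 bases before the RefSeq start site (assembly GRCm38.p6) are given for Fos, Fosb, Jun and Maff, 5′ to 3′ on the strand of the gene. Capitals mark TGACATCA, a variant of the AP-1 site, TGACGTCA, the full cAMP response element, and TGACG, the core shared by elements of this kind, searched on both strands. TGACG is contained in TGACGTCA.
Fos, chr12:85473640-85473889, plus strand: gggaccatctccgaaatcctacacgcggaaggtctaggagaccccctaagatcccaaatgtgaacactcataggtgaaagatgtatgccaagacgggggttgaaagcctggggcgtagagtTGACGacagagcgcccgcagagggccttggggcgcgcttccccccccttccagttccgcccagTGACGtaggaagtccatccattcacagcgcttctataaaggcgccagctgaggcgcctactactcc
Fosb, chr7:19310046-19310295, minus strand: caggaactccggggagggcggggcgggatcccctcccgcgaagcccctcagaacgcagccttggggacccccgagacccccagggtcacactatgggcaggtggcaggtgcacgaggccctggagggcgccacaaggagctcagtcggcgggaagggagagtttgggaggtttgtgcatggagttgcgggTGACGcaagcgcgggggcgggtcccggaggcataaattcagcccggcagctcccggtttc
Jun, chr4:95052223-95052472, minus strand: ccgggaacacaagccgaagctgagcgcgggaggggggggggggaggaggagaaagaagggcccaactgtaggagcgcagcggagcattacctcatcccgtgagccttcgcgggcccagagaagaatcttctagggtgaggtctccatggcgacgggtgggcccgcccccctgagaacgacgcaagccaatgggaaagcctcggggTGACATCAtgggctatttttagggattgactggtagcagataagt
Maff, chr15:79347270-79347519, plus strand, the second of its 3 listed starts: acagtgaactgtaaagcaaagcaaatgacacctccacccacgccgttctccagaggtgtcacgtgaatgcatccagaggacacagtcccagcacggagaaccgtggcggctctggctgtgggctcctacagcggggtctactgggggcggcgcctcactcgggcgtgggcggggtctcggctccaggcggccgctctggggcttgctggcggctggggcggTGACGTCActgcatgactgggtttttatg

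Promoter entries were found for 9 of the 10 genes, 11 entries in all, and not for Fosl1. The sequence of Jun held TGACATCA 45 to 38 bases before the start, and 2.93% of all 32851 promoter windows of this length hold these letters. In Maff, the second start had TGACGTCA 29 to 22 bases before it, which 1.55% of all windows hold, and the third start had TGACATCA 45 to 38 bases before it. The first start of Maff had none of the motifs searched. TGACG occurred in 6 of the 11 entries, belonging to 5 genes, Fos, Fosb, Junb, Maff (starts 2 and 3) and Mafk. Of all windows, 17.8% hold it. TGACG and TGACATCA were chosen after these sequences were seen, so their shares of all windows are descriptions and not a test of enrichment. In Fos, TGACG lay 66 to 62 and 129 to 125 bases before the start, and in Fosb 60 to 56 bases before it. Neither the AP-1 site TGANTCA (6.75% of all windows) nor the CArG box, the core of the serum response element (1.47%), was present in these letters in any of the 11 entries. These windows are short, and elements farther upstream lie outside them.

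Most genes of the family were more abundant in the 4H group, and the size of the change differed among close relatives. Fos and Fosb, nearly silent without stretch, rose to 6.60 and 6.43 times their mean CON level, Jun and Maff reached 1.99 and 1.90 times theirs, Fosl1 and Junb rose moderately, and Fosl2 and Jund did not pass the test. Levels are FPKM, fragments scaled to transcript length and to the mapped fragments of the library, so levels of different genes can be set side by side. Differences in log2(FPKM + 0.5) were tested with limma across the 11593 genes whose mean reached 0.5 FPKM, and the adjusted p follows Benjamini-Hochberg. On this scale the fold of a low gene comes out smaller than the ratio of its FPKM means. Differential expression required a log2 fold change of 1 or more in either direction together with an adjusted p not above 0.05. FPKM values summed to between 395790 and 397260 per CON library and between 385146 and 387516 per 4H library, and the depth of the libraries is unknown. In bulk RNA, more cells that express a gene and more RNA per cell cannot be told apart.

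**Figure D1:**
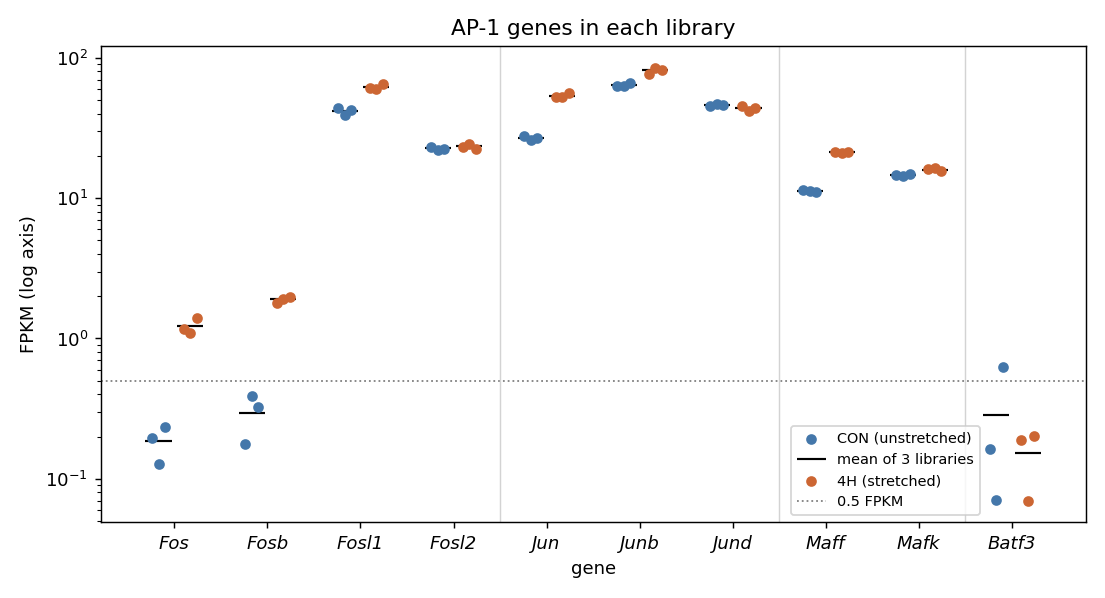
FPKM on a log axis of the 10 AP-1 genes in each of the 3 CON libraries (blue) and 3 4H libraries (orange), with the mean of each group as a black line and 0.5 FPKM as a dotted line. Fos and Fosb lie below 0.5 FPKM in the 3 CON libraries and above 1 FPKM in the 3 4H libraries, while Junb, between 62.8 and 85.3 FPKM, is the highest of the 10 genes in every library.

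Of the 10 genes, 9 passed the filter on low values. Fos and Fosb passed it only through the 4H group, since their CON means were 0.185 and 0.295 FPKM, so a difference was a condition of their being tested. Batf3 did not pass. Both Fos and Fosb were differentially expressed, 2 genes higher in the 4H group, where 2.61% of all genes tested were called in that direction. By the adjusted p of limma alone, 7 of the 9 were higher (22.6% of all genes tested) and 0 were lower (24.1% of all genes tested), also 0 at an unadjusted p under 0.05. Every 4H library was above every CON library in 7 genes (27.5% of all genes tested) and below in 1, Jund (29.2% of all genes tested). The median log2 fold change of the 9 genes was 0.57, against -0.01 over all genes tested. These counts describe the 9 genes that passed the filter and are not a test of the family.

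Fos (ENSMUSG00000021250), the prototype FOS gene, lies on chromosome 12 at 85473890 to 85477273 on the plus strand (GRCm38) and has 4 exons in its longest annotated transcript. It was at 0.194, 0.127 and 0.233 FPKM in the CON libraries, then at 1.18, 1.09 and 1.39 FPKM in the 4H libraries. The 4H libraries were all far above the CON libraries. Within the 4H group, only Batf3 of the 10 genes had a lower mean level than Fos. The log2 fold change was 1.33 (95% confidence interval 1.00 to 1.66, limma, adjusted p = 0.000149), and the mean 4H level was 6.60 ± 0.85 times the CON mean (SD of the 4H libraries, n = 3). Fos passed the filter only through the 4H group, so a difference was a condition of its being tested. With a pseudocount of 1 in place of 0.5 the log2 fold change was 0.90, below the fold threshold, and with 0.1 it was 2.22.

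Fosb (ENSMUSG00000003545; chromosome 7, 19302696 to 19310051, minus strand) encodes FOSB and, by alternative splicing, a short form without the C-terminal activation domain, which a value per gene does not separate. The CON libraries had 0.176, 0.387 and 0.323 FPKM and the 4H libraries 1.80, 1.91 and 1.99 FPKM. Here too the groups were far apart, and the 4H libraries differed little among themselves, with a coefficient of variation of 5.17%. Its log2 fold change of 1.60 (95% confidence interval 1.27 to 1.93, limma, adjusted p = 4.85e-05) was the largest of the family on this scale and the 91st highest of the 11593 genes tested, with Fos at place 150. Both genes passed the filter only through the 4H group, so a difference was a condition of their being tested and ranked. The mean of Fosb rose to 6.43 ± 0.33 times the CON mean (SD, n = 3), slightly less than the 6.60 times of Fos. With a pseudocount of 1 the log2 fold change was 1.17, and with 0.1 it was 2.38.

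Fosl1 (ENSMUSG00000024912; chromosome 19, 5447547 to 5455946, plus strand), which encodes FRA-1, was the dominant FOS gene in both groups. Its levels were 44.3, 38.9 and 42.3 FPKM in the CON libraries and 61.3, 60.4 and 65.5 FPKM in the 4H libraries. The groups did not overlap, and in FPKM the mean difference of 20.6 was the second largest of the 10 genes after that of Jun. The log2 fold change was 0.57 (95% confidence interval 0.45 to 0.70, limma, adjusted p = 7.01e-05), below the fold threshold. On the other strand, exons of Ccdc85b overlap Fosl1, and 56.9% of the 75-base stretches of the longest Fosl1 transcript recur there. The means of Ccdc85b were 8.98 FPKM for CON and 12.4 FPKM for 4H, and whether the counting used the strand is not given in the sources used here.

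Fosl2 (ENSMUSG00000029135; chromosome 5, 32135801 to 32157842, plus strand), which encodes FRA-2, stood at 23.3, 22.2 and 22.5 FPKM in the CON libraries, then at 23.2, 24.5 and 22.5 FPKM in the 4H libraries. The groups overlapped. The log2 fold change was 0.05 with a 95% confidence interval of -0.06 to 0.15 (limma, adjusted p = 0.455), so a rise of the size seen for Fosl1 lay outside the interval. With 1 library left out the log2 fold change of Fosl2 ranged from 0.01 (without 4H replicate 2) to 0.07 (without 4H replicate 3).

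Jun (ENSMUSG00000052684; chromosome 4, 95049034 to 95052222, minus strand, a single annotated exon) was at 27.6, 25.8 and 27.0 FPKM in the CON libraries, then at 52.2, 52.5 and 55.8 FPKM in the 4H libraries. The groups were widely separated, and the mean gain of 26.7 FPKM was the largest in the family. The mean 4H level was 1.99 ± 0.07 times the CON mean (SD, n = 3). The log2 fold change was 0.98 (95% confidence interval 0.88 to 1.08, limma, adjusted p = 1.04e-06), the smallest adjusted p of the 9 genes. Jun thus lay just under the fold threshold, and it was called with each library rescaled to TPM, a unit with the same sum in every library (1.03) and without CON replicate 1 (1.00). Junos overlaps the exon of Jun on the other strand, and 5.07% of the 75-base stretches of Jun recur in it.

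Junb (ENSMUSG00000052837; chromosome 8, 84974484 to 84978718, minus strand) had the highest level of the family in every library. It was at 63.5, 62.8 and 66.2 FPKM in the CON libraries, then at 77.2, 85.3 and 82.5 FPKM in the 4H libraries. All 4H libraries were above the CON libraries, by less than in Jun. The log2 fold change was 0.34 (95% confidence interval 0.24 to 0.44, limma, adjusted p = 0.000342). Exons of Prdx2 overlap Junb on the other strand, and the means of Prdx2 were 241.0 FPKM for CON and 225.2 FPKM for 4H.

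Jund (ENSMUSG00000071076; chromosome 8, 70698949 to 70700616, plus strand) was the only JUN gene that was not higher after stretch. The CON libraries had 45.5, 47.0 and 46.2 FPKM and the 4H libraries 45.4, 42.0 and 44.2 FPKM. The 4H libraries lay below the CON libraries, with 4H replicate 1 and CON replicate 1 nearly level. The log2 fold change was -0.08 with a 95% confidence interval of -0.16 to 0.01 (limma, adjusted p = 0.147). The annotation places Gm11175 on the other strand, and 45.9% of the 75-base stretches of Jund recur in it.

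The small MAF genes also differed in the size of their change. Maff (ENSMUSG00000042622; chromosome 15, 79346621 to 79359076, plus strand) was at 11.4, 11.2 and 11.1 FPKM in the CON libraries, then at 21.4, 20.9 and 21.4 FPKM in the 4H libraries. Its replicates were the tightest of the family in the 4H group, with a coefficient of variation of 1.25%, and its log2 fold change was 0.89 (95% confidence interval 0.79 to 0.99, limma, adjusted p = 1.69e-06). Mafk (ENSMUSG00000018143; chromosome 5, 139791513 to 139802653, plus strand) was at 14.7, 14.4 and 14.8 FPKM in the CON libraries, then at 16.05, 16.36 and 15.61 FPKM in the 4H libraries. Its groups did not overlap either, but the log2 fold change of 0.12 (95% confidence interval 0.02 to 0.23, limma, adjusted p = 0.0493) was at the edge of the threshold. Leaving out any of the 6 libraries ended the call of Mafk, with adjusted p between 0.0610 and 0.136. Exons of Tmem184a, at means of 0.114 FPKM for CON and 0.210 FPKM for 4H, overlap Mafk on the other strand.

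Batf3 (ENSMUSG00000026630; chromosome 1, 191097847 to 191108945, plus strand), known for its part in dendritic cells, was barely detected. It was at 0.162, 0.0705 and 0.625 FPKM in the CON libraries, then at 0.188, 0.0699 and 0.201 FPKM in the 4H libraries. The groups overlapped, the highest value was that of CON replicate 3, and no test was made at the filter used.

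**Figure D2:**
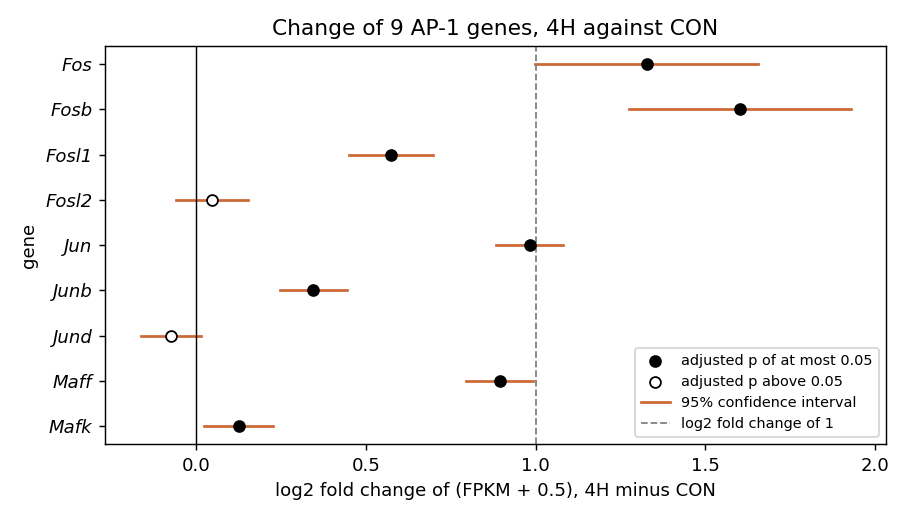
Log2 fold change of (FPKM + 0.5), 4H minus CON, of the 9 AP-1 genes that passed the filter, with 95% confidence intervals from limma and a dashed line at a log2 fold change of 1. Filled points passed the adjusted p of 0.05. Fosb and Fos lie to the right of the line, Jun (0.98) and Maff (0.89) close to it, and the intervals of Fosl2 and Jund include 0.

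The order of levels within the family changed for a few genes. In the CON group it ran from Junb through Jund, Fosl1, Jun, Fosl2, Mafk and Maff down to Fosb, Batf3 and Fos. In the 4H group Fosl1 and Jun stood above Jund, Maff above Mafk, and Fos above Batf3. Neighbours in these orders did not overlap between libraries, except Fosb with Batf3 and Batf3 with Fos in the CON group.

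The makeup of the FOS and JUN transcript pools was compared with exact permutation tests on 10 values per library, 2 sums, their ratio and 7 shares. With 3 libraries against 3 an exact permutation test cannot go below p = 0.1, which is 0.125 after Benjamini-Hochberg adjustment over the 10 values, so no value could pass. The summed FOS transcripts were at 67.9, 61.6 and 65.3 FPKM in the CON libraries, then at 87.5, 87.9 and 91.4 FPKM in the 4H libraries, 1.37 times the CON mean (two-sided exact permutation test, p = 0.1). The summed JUN transcripts were at 136.6, 135.6 and 139.4 FPKM and at 174.8, 179.7 and 182.5 FPKM, 1.304 times the CON mean (two-sided exact permutation test, p = 0.1). Both sums separated the groups completely. The ratio of the FOS sum to the JUN sum was 0.473 ± 0.022 in the CON group and 0.497 ± 0.0068 in the 4H group (SD, n = 3), and these ranges overlapped (exact permutation test, p = 0.2).

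Fosl1 and Fosl2 made up nearly all of the FOS pool in both groups. The share of Fosl1 was 65.2%, 63.2% and 64.7% in the CON libraries and 70.1%, 68.7% and 71.7% in the 4H libraries. The share of Fosl2 went the other way, from 34.9% ± 0.94 to 26.3% ± 1.64 (SD, n = 3), although its own level hardly differed. Fos made up 0.283% ± 0.076 of the pool in the CON group and 1.37% ± 0.14 in the 4H group, and Fosb 0.461% ± 0.19 and 2.13% ± 0.071 (SD, n = 3). Thus the genes with the largest relative change remained a small part of FOS transcripts.

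In the JUN pool, the share of Jun was 20.2%, 19.0% and 19.4% in the CON libraries and 29.9%, 29.2% and 30.6% in the 4H libraries. Jund made up 33.7% ± 0.85 and 24.5% ± 1.31 (SD, n = 3) of the pool in the same groups. Jun and Jund therefore exchanged places, while Junb kept the largest share, with 46.7% ± 0.65 and 45.6% ± 1.68 (SD, n = 3) and overlapping libraries (exact permutation test, p = 0.3). The shares of Fos, Fosb, Fosl1, Fosl2, Jun and Jund separated the groups completely, each at the smallest p of 0.1.

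**Figure D3:**
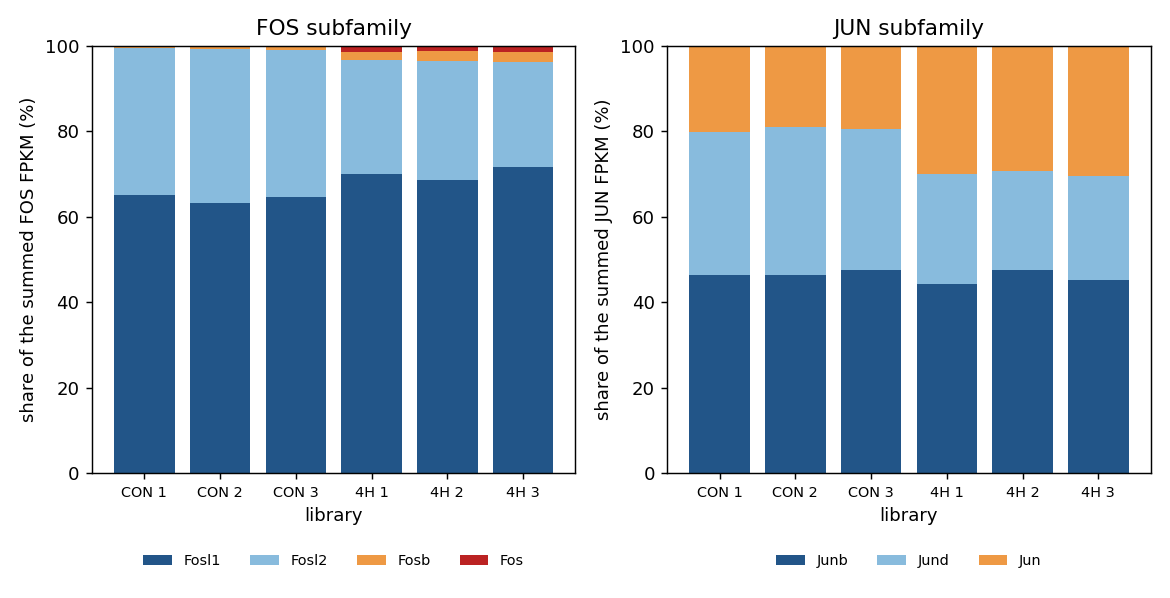
Share in percent of each gene in the summed FPKM of the FOS subfamily (left) and the JUN subfamily (right) in each of the 6 libraries. Fosl1 takes 63.2% to 71.7% of the FOS pool, Fos and Fosb form the thin bands at the top, and the band of Jun widens from 19.6% in the mean of the CON group to 29.9% in the 4H group.

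Of other bZIP genes that pair with AP-1 or small MAF proteins, 10 of 18 could be tested, and most were lower after stretch. By the adjusted p of limma 6 were lower (60% of those tested, against 24.1% of all genes) and 1 was higher (10% against 22.6%). The median log2 fold change was -0.24, and no gene of the list reached a log2 fold change of 1 in either direction. This list and those below were chosen with earlier results of these data known, so their shares are descriptions and not tests. Jdp2, a JUN partner that represses AP-1 sites, was at 44.7, 44.9 and 45.9 FPKM in the CON libraries, then at 31.4, 30.7 and 30.5 FPKM in the 4H libraries (log2 fold change -0.54, limma, adjusted p = 6.31e-06). Atf3, a stress-induced partner of JUN proteins, was at 13.3, 12.2 and 11.9 FPKM and at 8.18, 6.77 and 5.82 FPKM (log2 fold change -0.81, limma, adjusted p = 0.000521). Both genes were lower in every 4H library, opposite in direction to Fos, Fosb and Jun.

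Both NRF-type partners of small MAF proteins in the list that could be tested fell as well. Nfe2l1 had a log2 fold change of -0.80 (limma, adjusted p = 4e-06), and Nfe2l2, which encodes NRF2, the main activator of antioxidant genes, one of -0.60 (limma, adjusted p = 2.75e-06). Mafg, the third small MAF gene, fell from 35.1 ± 1.74 to 27.8 ± 1.47 FPKM (SD, n = 3, log2 fold change -0.33, limma, adjusted p = 0.00131), whereas Maff rose. The gene that rose in this list was Creb5 (log2 fold change 0.49, limma, adjusted p = 0.00414), a relative of Atf2.

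Among kinases and promoter factors that act upstream of FOS and JUN genes, 27 of 29 were tested, 1 of them with a CON mean under the filter. By the adjusted p of limma 9 were higher (33.3% of those tested, against 22.6% of all genes) and 4 were lower (14.8% against 24.1%), with a median log2 fold change of 0.07. Srf, which encodes the factor that binds the serum response element of Fos, was at 16.5, 16.2 and 16.4 FPKM in the CON libraries, then at 33.7, 34.2 and 31.8 FPKM in the 4H libraries. Its groups were widely separated, with a log2 fold change of 1.00 just under the fold threshold (0.9993, limma, adjusted p = 9.33e-07). Its cofactors Elk3 (log2 fold change 0.74), Mrtfb (0.41) and Mrtfa (0.19) rose and Elk1 fell (-0.41), with adjusted p of 4.12e-05, 0.000919, 0.0047 and 0.000665 in limma, and Elk4 (0.07) did not pass the test. The kinase genes were mixed. Map2k3 (0.71), Map2k6 (0.68), Map2k4 (0.46), Rps6ka4 (0.46) and Mapk14 (0.19) rose in log2 fold change, with adjusted p of 5.47e-06, 0.000494, 0.000197, 5.04e-05 and 0.00713 in limma. Map2k5 (-0.29), Mapk12 (-0.21) and Map2k7 (-0.13) fell, with adjusted p of 0.0277, 0.00936 and 0.0435 in limma. Among those that did not pass were Mapk3, Mapk8 and Mapk9, with log2 fold changes from -0.37 to 0.06. The value of -0.37 was that of Mapk9, where CON replicate 1 stood at 28.6 FPKM against 14.9 and 13.1 FPKM in the other CON libraries. RNA levels do not report kinase activity. Of the 12 genes for turnover and modification of JUN and FOS proteins, 11 were tested. Of these 2 were higher and 2 were lower, 18.2% each way against 22.6% and 24.1% of all genes, shares below the background. The median log2 fold change was -0.01, and with 1 library left out 2 to 3 genes were called. Itch, a ubiquitin ligase of JUN and JUNB, was among the higher genes (log2 fold change 0.21, limma, adjusted p = 0.00678).

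The textbook AP-1 targets had the largest median of the 4 related lists. Of 28 genes, 24 were tested. By the adjusted p of limma 18 were higher (75% of those tested, against 22.6% of all genes) and 3 were lower (12.5% against 24.1%), around a median log2 fold change of 0.76. Both thresholds were passed by 9 genes, all of them higher, where 2.61% of all genes were called in that direction. Of the tested genes, 3 had a CON mean under 0.5 FPKM and passed the filter only through the 4H group, Mmp3, Il6 and Il11, and of these Mmp3 is among the 9. The list was chosen with earlier results of these data known, so its shares are a description and not a test. Many of these genes also answer to other factors, and the part of AP-1 in their change was not tested.

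Plau, the urokinase plasminogen activator and a classic target of FOS and JUN, was at 8.42, 9.46 and 9.30 FPKM in the CON libraries, then at 43.7, 39.4 and 38.4 FPKM in the 4H libraries. Every 4H library was far above every CON library (log2 fold change 2.10, limma, adjusted p = 1.99e-07). Timp3, an inhibitor of metalloproteinases, had a log2 fold change of 1.89 (limma, adjusted p = 1.3e-07), and Hbegf, a ligand of the EGF receptor, one of 1.75 (limma, adjusted p = 3.08e-07). These 3 had the largest changes of the list on the log2(FPKM + 0.5) scale, while by the ratio of mean FPKM Mmp3 (5.69) stood above Plau (4.47), Timp3 (3.75) and Hbegf (3.47). The metalloproteinases themselves were mixed. Mmp3, the stromelysin gene with a well-known AP-1 site, had 0.222 ± 0.081 FPKM for CON against 1.26 ± 0.41 FPKM for 4H (SD, n = 3), a difference that was a condition of its being tested. Mmp10 fell (log2 fold change -0.28, limma, adjusted p = 0.0162), and Mmp13, a collagenase, stayed under the filter with 1.21 FPKM in 4H replicate 3 and at most 0.322 FPKM in the other libraries. Hmox1, which also responds to NRF2, fell from 131.3 ± 7.91 to 67.1 ± 7.12 FPKM (SD, n = 3, log2 fold change -0.97, limma, adjusted p = 2.37e-05).

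**Figure D4:**
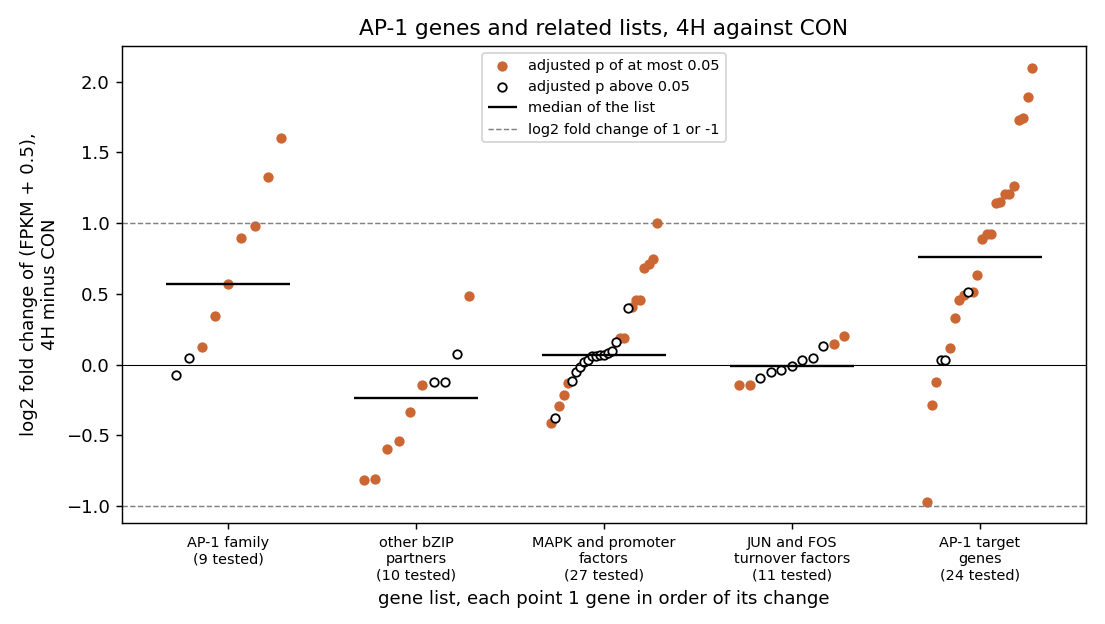
Log2 fold change of (FPKM + 0.5), 4H minus CON, of the tested AP-1 genes and of 4 related gene lists, each point 1 gene, with the median of each list as a black line and dashed lines at 1 and -1. Filled points passed the adjusted p of 0.05 in limma. The median is 0.57 for the AP-1 genes, -0.24 for other bZIP partners, 0.07 for upstream factors, -0.01 for turnover factors and 0.76 for AP-1 targets.

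Cell type markers were read beside these results. The myoblast markers summed to 2032 to 2109 FPKM in the CON libraries and to 3047 to 3280 FPKM in the 4H libraries, most of it Vim. Of 8 tested, 6 were higher (75% against 22.6% of all genes) and 1 was lower (12.5% against 24.1%). The myogenic factors Myod1 and Myf5 went opposite ways. Myod1 rose from 5.13 ± 0.57 to 18.2 ± 0.74 FPKM (SD, n = 3, limma, adjusted p = 1.56e-06), and Myf5 fell from a mean of 15.8 to 9.82 FPKM (log2 fold change -0.67, limma, adjusted p = 0.000347). Myotube markers summed to 3.15 to 3.80 FPKM and 7.49 to 9.02 FPKM. Most of the 4H sum was Actn3, with a mean of 6.02 FPKM, which passed both thresholds (log2 fold change 1.28, limma, adjusted p = 1.6e-05). Mymk was the other of the 2 tested and was higher (0.57, limma, adjusted p = 0.0194). The 12 markers that were not tested did not share a direction. Myog, a regulator of differentiation, was at 0.281, 0.136 and 0.235 FPKM in the CON libraries, then at 0.0794, 0 and 0 FPKM in the 4H libraries, and Myh1 was at a mean of 0.0531 FPKM for CON and listed at 0 for 4H. Ttn had means of 0.198 FPKM for CON and 0.522 FPKM for 4H, and Tnnt3 of 0.0779 and 0.401 FPKM, both without overlap. Mymx and Myh8 were listed at 0 in all libraries. The 6 macrophage and leukocyte markers summed to 6.73 to 8.51 FPKM and 16.5 to 18.5 FPKM. Cd68, a lysosomal protein not confined to leukocytes, carried most of that, and Csf1r was at most at 0.0272 FPKM in the CON libraries and between 0.792 and 1.48 FPKM in the 4H libraries, through which alone it passed the filter, while the defining markers Ptprc and Adgre1 were listed at 0 in all 6 libraries. Cd68 (log2 fold change 1.07, limma, adjusted p = 4.11e-05) and Csf1r (1.61, limma, adjusted p = 0.000231) were the 2 tested. Both passed both thresholds, where 2.61% of all genes were called higher. None of the 5 endothelial and 5 epithelial markers was high enough to be tested. The endothelial sum was 0.147 to 0.287 FPKM for CON and 0.467 to 0.619 FPKM for 4H, and the epithelial sum 0.0401 to 0.148 and 0.481 to 1.10 FPKM, with Epcam listed at 0 in every library. The 4H libraries were thus above the CON libraries in each of these sums. The part of these markers in the AP-1 results was not tested.

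The genes with the pattern most like that of Fosb, by the distance between mean-centred log2 profiles over the 6 libraries, were Col6a3, Cd53 and Apol10b, at distances of 0.158, 0.175 and 0.188. Their log2 fold changes of 1.68, 1.63 and 1.65 were close to the 1.60 of Fosb. With 2 groups of 3 libraries, this likeness is mostly that of the size of the change. In level these genes stood above Fosb. Over the 6 libraries, the means were 72.8 FPKM for Col6a3, 8.24 FPKM for Cd53, 4.08 FPKM for Apol10b and 1.10 FPKM for Fosb.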

How the data were processed

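Poly(A) RNA of C2C12 cells was sequenced in strand-specific, paired-end 150 bp libraries. Values are FPKM as deposited by the authors, in 1 table with a column for each of the 6 libraries. The processing notes of the submitters name the build mm10. Aligner, counting tool and annotation: not given in the sources used here. The fold and p thresholds follow the methods of the study. FPKM holds no depth, so precision rests on the spread of 3 libraries per group.

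Groups and replicate numbers follow the labels. No count model was used on FPKM. Genes whose mean reached 0.5 FPKM were compared, 4H against CON, with limma 3.58.1 in R 4.3.3 (lmFit, eBayes with a trend, no replicate block) on log2(FPKM + 0.5), two-sided, with Benjamini-Hochberg adjustment over all 11593 genes. The limma step was run on simulated data, with changes planted only in genes of higher mean level than Fos and Fosb. That run therefore does not cover genes as low as these. Sums and shares were compared with exact permutation tests. Coordinates, exons and overlaps came from GENCODE M21 (GRCm38), promoters from RefSeq (GRCm38.p6). Protein sequences were not used here, and some items are not reported here. Alternatives were other pseudocounts, filters, scalings and weights, a replicate block, and each library left out.

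The members and lists were chosen with earlier results of these data known. The rule names all 10 genes, the 3 genes of each list past both thresholds with the largest change, and the 3 genes nearest to the member that changed most. Jdp2, Atf3, Nfe2l1, Nfe2l2, Mafg, Creb5, Srf, Elk1, Elk3, Elk4, Mrtfa, Mrtfb, Itch, the named kinases, Mmp3, Il6, Il11, Myf5, Myog, Mymk, Myh1, Ttn, Tnnt3, Mmp10, Mmp13 and Hmox1, and the motifs TGACG and TGACATCA, were chosen after their values or sequences were seen, as was the fold threshold on the ratio of mean FPKM.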

Additional observations from a re-analysis of the deposited data

How the results depend on the processing

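Direction was kept by all 9 tested AP-1 genes under every alternative run, and the side of the adjusted p of 0.05 by all but Mafk. The number of differentially expressed AP-1 genes, 2, was 1 with a pseudocount of 1 (without Fos) and 1 with the filter raised to 1 FPKM (Fos not tested), 0 with a filter at 5 FPKM, which removes Fos and Fosb, and between 2 and 3 with 1 library left out, where Jun was added without CON replicate 1. With libraries rescaled to TPM it was 3, with Jun. Taking the fold threshold on mean FPKM without a pseudocount, an alternative chosen after seeing the data, gave 2, and 625 over all genes. With limma as reported, 450 of all genes were differentially expressed, 245 with a filter at 5 FPKM and 703 on the TPM scale, where 12457 genes passed the filter in place of 11593. The count of turnover factors past the adjusted p, 4, ranged from 2 to 3 with 1 library left out, and was 2 without each library other than 4H replicate 1. With a replicate block, 452 genes were differentially expressed and Mafk had an adjusted p of 0.0998. Replicate numbers are those of the sample descriptions, and deviations of libraries that share such a number correlated at 0.02, -0.09 and -0.13 across genes. The sample titles number the 4H libraries differently. By title, CON replicate 3 shares its number with 4H replicate 2, and these correlated at 0.18, the highest of all CON and 4H pairs, while CON replicate 1 and 4H replicate 1 share theirs under both (0.02). The numbers were therefore not taken to pair the samples. Quantile normalization gave Mafk 0.0586. The cause of the loss of Mafk was not tested. FPKM hides the fragment numbers behind Fos, Fosb and Batf3, so their counting error is unknown.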
